A study of Rattus norvegicus with 2 samples.

Results

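Neutrophil granule and marrow myeloid genes were followed through the transcript models assembled from rat femur. The set is S100a8, S100a9, Lcn2, Mpo, Ltf, Prtn3, Elane, Camp, Mmp8 and Lyz. Its genes were picked by name and by no measured value, but with earlier results of these data known. A gene counted as found when a transcript carried its name, upper and lower case being treated alike and an ending _predicted or _mapped being ignored. Of the 10 genes, 7 were found, among 12308 named genes of the annotation, and they held 12 of its 43391 transcripts. Of all current protein-coding symbols, 23.0% had a transcript under their name. Ltf, Elane and Lyz were not found by name.

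The RNA came from femurs of female wild-type Wistar rats after bilateral ovariectomy (OVX), which removes the source of ovarian estrogen, or after a sham operation (SHAM) that left the ovaries in place. The labels used here name 1 OVX sample and 1 SHAM sample and give 16 weeks for both, whereas the study's methods give a shorter time of feeding after surgery and more sequenced rats. In the labels the OVX rat is old and the SHAM rat is young, so surgery and age cannot be told apart. The files give neither counts nor expression values nor coverage. Depth is therefore unknown, genes have no level here, and OVX could not be compared with SHAM. Each transcript is recorded as present in 1 or 2 assemblies, and neither assembly could be tied to a group or a rat. Positions are those of the files, which name no genome build. The submitters' processing notes list rn4, but gene names of the form rCG_ plus a number and the accessions of the sequences resemble those of the Celera rat assembly. Which build the positions belong to was not settled, and they should not be looked up in rn4 without a check.

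Neutrophils are made in the bone marrow, and a femur ground whole carries that marrow with it. As the cells mature they pack granules in turn: primary (azurophil) granules with myeloperoxidase and serine proteases first, then secondary (specific) granules with lactoferrin, cathelicidin, lipocalin and collagenase. The calcium-binding pair S100a8 and S100a9 fills the cytosol. Granule messages are made mostly in marrow precursors and are scarce in mature blood neutrophils, so a marrow-rich tissue is where such transcripts are usually met.

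All 7 genes found by name had transcripts in both assemblies, as did 76.9% of all named genes. A model matching the complete chain of introns of a reference transcript, called a full reference chain below, was assembled for 6 of the 7, all but Mpo, against 38.6% of named genes. Single-exon models of the same class, which have no intron, are included in the shares of named genes and of the lists below. For 5 of the 7 (S100a9, Lcn2, Prtn3, Camp and Mmp8) such a model was recorded in both assemblies, against 20.1%, and the same 5 were those with any single transcript recorded in both, against 31.0%. Lcn2, Camp and Mmp8 had 1 transcript only, as did 30.8% of named genes. Of the 12 transcripts, 6 had a full reference chain, 4 had at least 1 new junction, 1 retained an intron and 1 was a fragment contained in a reference transcript. Among transcripts of all named genes, 15.4% had a full reference chain, 25.4% had a new junction, 0.250% were of the retained-intron class of the S100a9 model and 55.8% were contained fragments. A contained fragment occurred in 1 gene of the set, S100a8, and in 66.7% of named genes. No gene of the set had contained fragments only, a state seen in 27.3% of named genes. These shares are descriptions, since genes are not replicates of a condition.

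Single introns were counted as well. Every intron of a transcript recorded in both assemblies counts as present in both, so this count is not independent of the shared models above. The 7 genes had 41 distinct introns, and 36 of them were present in both assemblies, compared with 54.3% of the introns of all named genes. The 5 introns met in 1 assembly only lay in S100a8 (1), Mpo (3) and Prtn3 (1). S100a9, Lcn2, Camp and Mmp8 had every one of their introns in both, which follows from their shared models.

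**Figure D1:**
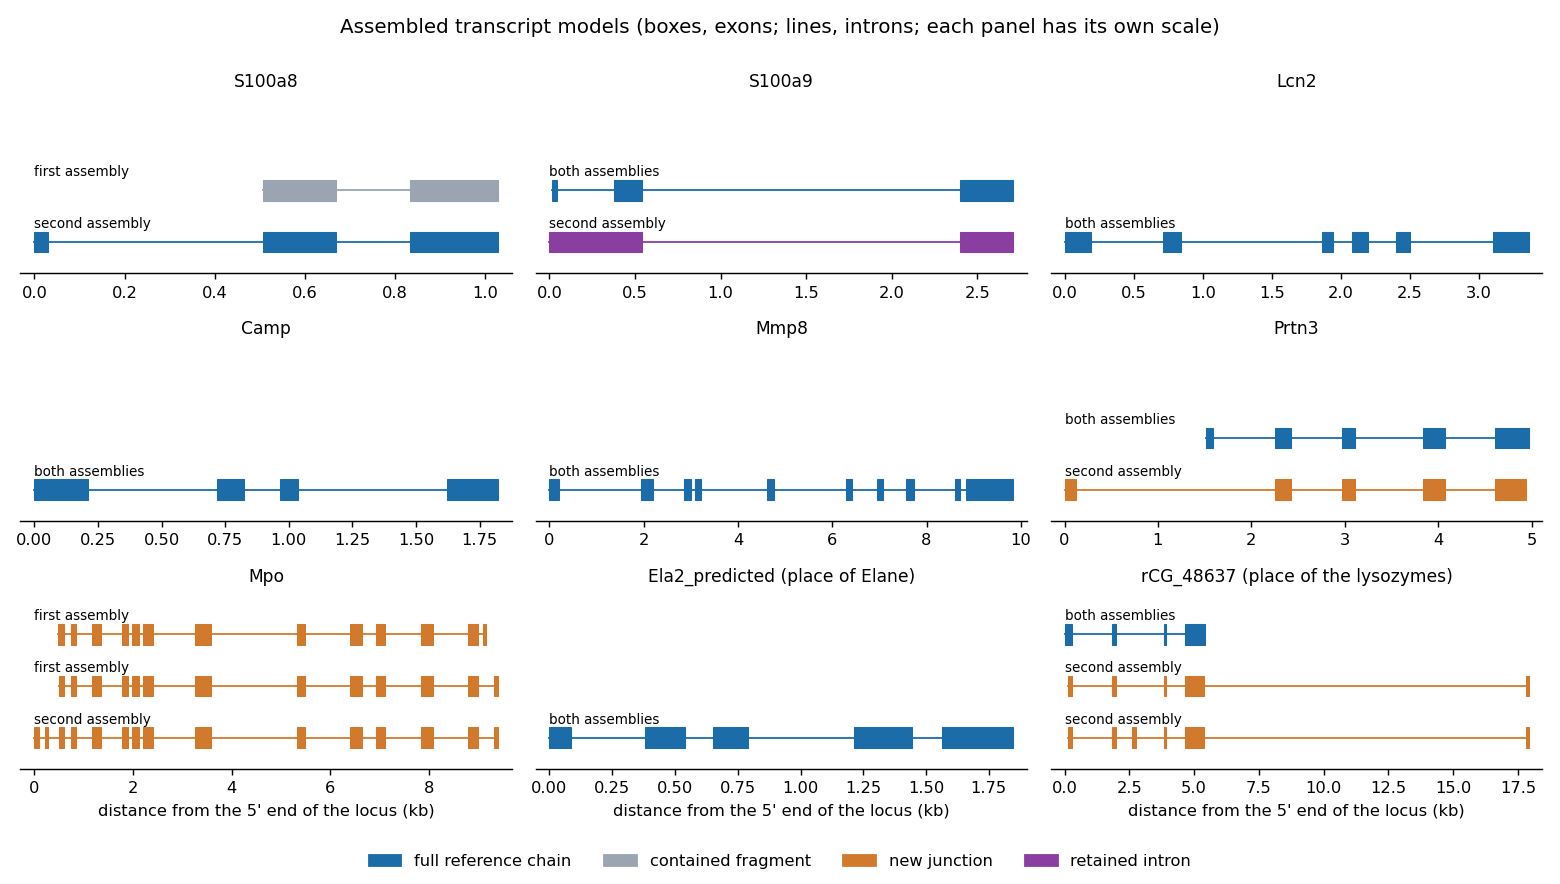
Exon and intron structure of every transcript model of the 7 genes found, and of the loci at the places of Elane and of the lysozymes, drawn from the 5' end of each locus in kb with a separate scale per panel. Boxes are exons, lines are introns and colours give the class of the model; Lcn2, Camp and Mmp8 each have 1 model, shared by both assemblies, while the 3 models of Mpo all carry a new junction.

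The secondary granule genes of the set with a model, Lcn2, Camp and Mmp8, had 1 transcript each, the fewest of the genes found. So did 30.8% of all named genes. Other genes of secondary and gelatinase granules ranged from 1 transcript (Chi3l1) to 8 (Adam8). Lcn2 encodes lipocalin 2 (NGAL), which withholds iron from bacteria by binding their siderophores. Its 1 transcript was a full reference chain shared by the assemblies, on chromosome 3 from 10423565 to 10426922 on the minus strand (XLOC_003907). The model had 6 exons and 886 bp of exon sequence. Its exons measured 191, 137, 80, 120, 102 and 256 bp from the 5' end, and all 5 introns were in both assemblies.

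Camp encodes the cathelicidin precursor, from which proteases release an antimicrobial peptide. Its 1 transcript was likewise a full chain shared by the assemblies (XLOC_009068, chromosome 8, 109131521 to 109133345, minus strand). Its 4 exons of 213, 108, 72 and 203 bp summed to 596 bp over a span of 1825 bp. Ngp, a marrow granule protein of the same family that lies on the same chromosome, had 4 exons of 190, 102, 87 and 720 bp in its shared full-chain model. The last exon was thus the longest in Ngp and the first in Camp. A second Ngp model, in the second assembly, skipped exon 3.

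Mmp8 encodes neutrophil collagenase, which cuts fibrillar collagens including that of bone. Its only transcript was a shared full chain with the most exons of any full-chain model of the set, 10, with 2393 bp of exon sequence (XLOC_008224, chromosome 8, 6283630 to 6293474, plus strand). The last exon alone measured 1010 bp. All 9 introns, from 80 to 1754 bp, were in both assemblies. Mmp13, the collagenase of osteoblasts and chondrocytes, was assembled on the same strand of this sequence and likewise reached 10 exons, but its 3 transcripts were each met in 1 assembly only and 7 of its 9 introns were in both.

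Lactoferrin, the iron-binding protein that gives secondary granules much of their content, had no model under its name Ltf. The reference table of GRCr8, used here for gene order alone, places Ltf on the plus strand directly between Rtp3 and Ccrl2, both on the minus strand. Both neighbours were assembled on the minus strand here, Rtp3 under its older name Tmem7_predicted. In the 59589 bp between them there was 1 model, an unnamed one of 3 exons and 226 bp (XLOC_009080), which was on the minus strand and in the second assembly only. No plus-strand model lay in the interval, so no candidate for Ltf was seen there under any name. The numbering of the reference transcripts leaves 3 numbers between those of the neighbours. With depth unknown, this does not show that the gene was silent.

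The cytosolic pair lay together on chromosome 2, S100a8 on the plus strand (XLOC_002417, 170099370 to 170100399) and S100a9 on the minus strand (XLOC_002953, 170123108 to 170125820). Their loci were 22708 bp apart, with 3' ends facing each other. The proteins form calprotectin, which binds zinc, manganese and calcium and is among the most abundant proteins of the neutrophil cytosol.

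S100a8 had 2 transcripts, 1 in each assembly. In the second assembly it had a full reference chain of 3 exons (32, 164 and 197 bp, 393 bp in all). In the first assembly the model held the last 2 of these exons only (164 and 196 bp) and was therefore a contained fragment of 360 bp. The 3' ends differed by 1 bp and the 5' ends by 506 bp, so the difference lay in the short first exon and the intron of 474 bp behind it. The other intron, of 163 bp, was in both.

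S100a9 had a full reference chain of 3 exons (27, 162 and 313 bp, 502 bp in all) in both assemblies. The second assembly held a further model of 2 exons and 850 bp in which the first intron, of 336 bp, was retained, which joined the first 2 exons to 1 of 541 bp. Models with a retained intron were found for 2.92% of named genes. The 5' ends of the S100a9 models were 16 bp apart and the 3' ends 4 bp. S100a8 and S100a9 shared the layout of a short first exon, a second exon near 160 bp and a longer last exon with S100a4, a neighbour in the same cluster, whose exons measured 41, 156 and 294 bp. S100a6, the nearest named neighbour on the 5' side of S100a8, departed from it. Its full-chain models, both in the second assembly, had exons of 329, 159 and 231 bp and of 448 and 231 bp, so the first exon was the longest.

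Of the serine proteases of the primary granules, Prtn3 and a locus at the place of Elane stood side by side on chromosome 7. Prtn3 encodes proteinase 3, and Elane encodes neutrophil elastase. Both cut matrix and microbial proteins. Prtn3 (XLOC_007758, 7996878 to 8001845, minus strand) had 2 transcripts. The first, in both assemblies, had a full reference chain of 5 exons measuring 80, 166, 142, 231 and 359 bp. The other, in the second assembly only, had the same 3 middle exons but began at another first exon of 127 bp, and its 5' end lay 1515 bp further upstream. The intron that joined this exon to the rest measured 2128 bp and made the model 1 with a new junction, a class met in 42.7% of named genes.

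No transcript was named Elane, yet 3027 bp from Prtn3, on the same strand, lay a locus named Ela2_predicted (XLOC_007757, 7992002 to 7993850). Ela2 is an older symbol of 2 genes, Elane and the pancreatic Cela2a, so the name alone does not decide between them. The reference table gives the order Cfd, Elane, Prtn3 and puts Cela2a on another chromosome. In the annotation Ela2_predicted was the 1 locus between Cfd and Prtn3, at the place of Elane. It had 1 transcript, a shared full chain, with 905 bp of exon sequence. Its 5 exons of 87, 157, 142, 234 and 285 bp ran parallel to those of Prtn3, exon 3 being 142 bp in both. Cfd, the complement protease adipsin, repeated the layout with 65, 157, 148, 258 and 217 bp. Ctsg, the cathepsin G gene on chromosome 15, did so with 188, 148, 139, 255 and 276 bp in 1 of its 2 models.

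**Figure D2:**
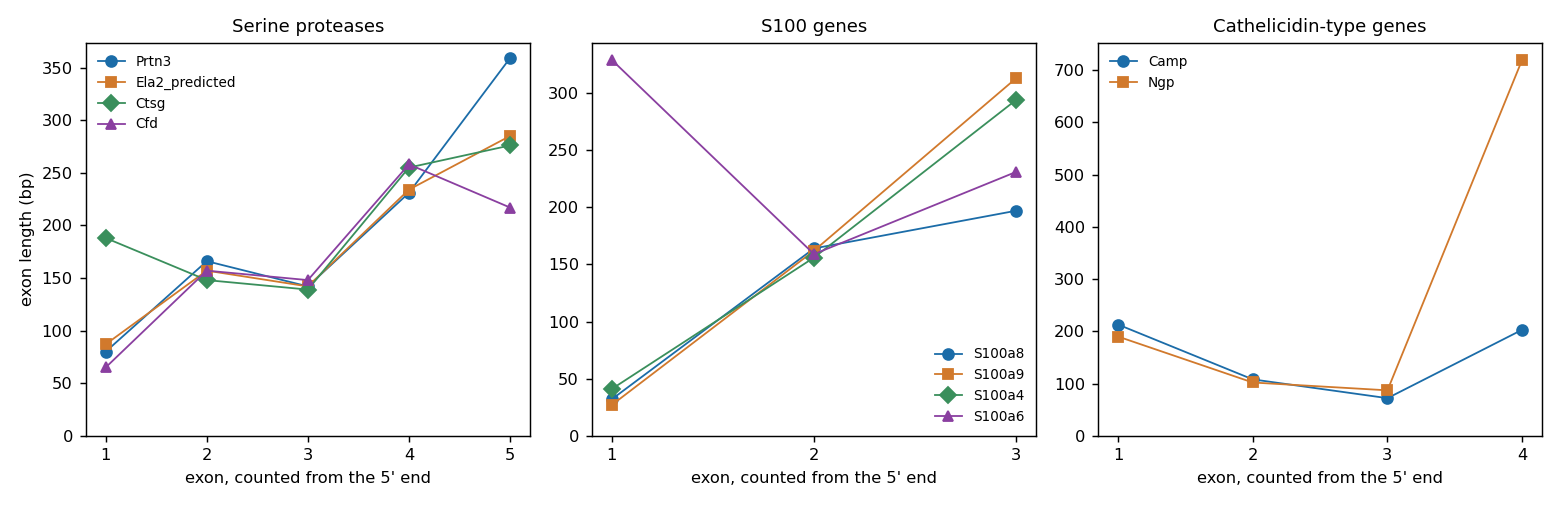
Exon length in bp against exon number from the 5' end for 1 full-chain model per gene, with serine proteases, S100 genes and cathelicidin-type genes in separate panels and 1 line per gene. Exon 3 of Prtn3 and of Ela2_predicted is 142 bp in both, and the first exons of S100a8 and S100a9 measure 32 and 27 bp, that of S100a6 329 bp.

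Mpo encodes myeloperoxidase, the primary granule enzyme that makes hypochlorous acid. It was the gene of the set without a full reference chain. Its 3 transcripts (XLOC_010251, chromosome 10, 71507972 to 71517382, plus strand, named Mpo_mapped) all had at least 1 new junction, and none was shared. The first assembly held a model of 13 exons and 2270 bp and another of 13 exons and 2274 bp. They had 11 introns in common and differed in the last, of 98 bp in the former and 322 bp in the latter, which put their 3' ends 255 bp apart. The second assembly held a model of 15 exons and 2436 bp with the same 3' end as the 2274 bp model. It contained all 12 introns of that model plus 2 more at its 5' end, of 122 and 220 bp, and began 504 bp further upstream. Of the 15 distinct Mpo introns, 12 were therefore in both assemblies, although no whole transcript was. Which junction departs from the reference cannot be read from the files, which do not give the exons of the reference transcript.

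Lysozyme, the enzyme that breaks the bacterial cell wall, occurs in all neutrophil granules and in macrophages. No transcript carried the name Lyz, nor any of the 6 other lysozyme names looked for. Lyz is an older symbol of rat Lyz2, which the reference table places between Yeats4 and Cpsf6 together with Lyc2 and RGD1306474. In the 98150 bp between Yeats4_predicted and Cpsf6_predicted lay 2 loci. One, rCG_48647, was a single exon of 441 bp on the plus strand in the first assembly. The other, rCG_48637 (XLOC_007862, chromosome 7, 49668171 to 49686081), was on the minus strand, which is that of Lyz2, Yeats4 and Cpsf6 in the reference table, while Lyc2 is on the plus strand there. Its model in both assemblies had a full reference chain of 4 exons (304, 165, 79 and 780 bp). The second assembly added models of 5 and 6 exons, both ending in an exon of 88 bp behind an intron of 12422 bp, and the longer of them had an extra exon of 151 bp. The files do not say which gene this locus is or whether it encodes a lysozyme, and it was not counted as Lyz.

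The set was compact. The median span of the 7 loci was 3358 bp, from 1030 bp for S100a8 to 9845 bp for Mmp8, against 14496 bp for all named genes. Their median intron was 519 bp against 1206 bp. The medians of 5 exons in the largest model and 2 transcripts equalled those of all named genes. Contained fragments count in both medians of transcripts. They were 1 of the 12 transcripts here, against 55.8% of the transcripts of all named genes. The median exon length of the longest model was 886 bp against 1012 bp. Mpo and Mmp8 lay above that value for all named genes and the other 5 below it.

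**Figure D3:**
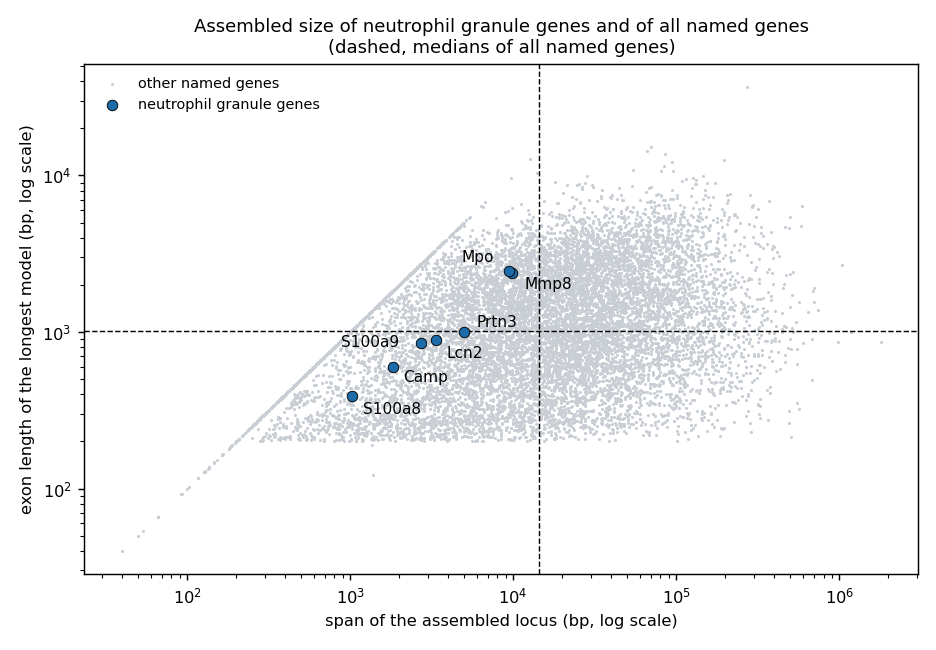
Span of each assembled locus against the exon length of its longest model, both in bp on log axes, for all 12308 named genes (grey) with the 7 neutrophil granule genes marked and the medians of all named genes dashed. All 7 lie left of the median span of 14496 bp.

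Regions upstream of the genes can be shown from RefSeq for 7 of the 10 (S100a9, Lcn2, Prtn3, Mmp8, Camp, Ltf and Mpo), in the build GRCr8 and not in the positions of the files. The 250 bases before the start were searched on both strands for TATAAA (the TATA box), for TTGCNNAA (a form of the C/EBP site) and for GAGGAA (the core of many PU.1 sites), since C/EBP factors and PU.1 drive granulocyte genes. TATAAA was present in 2 of 7 (S100a9 and Mmp8) and in 12.9% of the 33469 promoters in the table. TTGCNNAA was present in 2 (Lcn2 and Mmp8) against 9.22%, and GAGGAA in 3 (S100a9, Prtn3 and Mpo) against 23.3%. The letters of none of the motifs overlapped those of another, and Camp and Ltf held none in this window. A match describes the letters only. The genes with a shared full-chain model and at least 1 match are shown 5' to 3', ending at the base before the start, with matches in capitals.
S100a9 (GRCr8, chr2:178490623-178490872, minus strand): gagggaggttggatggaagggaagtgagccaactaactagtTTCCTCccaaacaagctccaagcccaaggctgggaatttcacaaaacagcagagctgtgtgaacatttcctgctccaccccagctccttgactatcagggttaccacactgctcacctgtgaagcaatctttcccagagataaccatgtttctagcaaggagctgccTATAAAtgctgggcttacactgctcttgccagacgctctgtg
Mmp8 (GRCr8, chr8:13008640-13008889, plus strand): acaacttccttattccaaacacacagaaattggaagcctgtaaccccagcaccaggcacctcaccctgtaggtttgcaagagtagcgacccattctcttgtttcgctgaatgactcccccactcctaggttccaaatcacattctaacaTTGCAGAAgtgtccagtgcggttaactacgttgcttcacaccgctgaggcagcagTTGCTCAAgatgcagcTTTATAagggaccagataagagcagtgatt
Lcn2 (GRCr8, chr3:36081781-36082030, minus strand): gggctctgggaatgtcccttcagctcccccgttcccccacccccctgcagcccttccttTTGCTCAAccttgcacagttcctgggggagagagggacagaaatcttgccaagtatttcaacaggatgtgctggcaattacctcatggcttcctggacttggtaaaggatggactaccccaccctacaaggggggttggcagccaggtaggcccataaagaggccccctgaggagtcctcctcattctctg
Prtn3 (GRCr8, chr7:10476197-10476446, minus strand): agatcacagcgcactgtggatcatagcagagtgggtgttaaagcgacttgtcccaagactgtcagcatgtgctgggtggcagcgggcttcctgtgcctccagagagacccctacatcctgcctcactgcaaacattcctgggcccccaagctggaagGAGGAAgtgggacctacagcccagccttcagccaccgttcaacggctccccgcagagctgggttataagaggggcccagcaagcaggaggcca
In Mmp8 the TATAAA match, read on the opposite strand, lay at positions -30 to -25 from the start, and TTGCNNAA matches lay at -46 to -39 and -101 to -94. In S100a9 the TATAAA match lay at -42 to -37.

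Wider lists placed the set among the other cells of the femur. Matching by name was incomplete, because 4469 of the 12567 names have the form rCG_ plus a number and 23.0% of current protein-coding symbols were found. Counts of names found are therefore lower limits, and the shares below are over genes found. Of 21 secondary and gelatinase granule genes, 14 were found, all with transcripts in both assemblies and all with a full reference chain. The same shares of all named genes were 76.9% and 38.6%. For 13 of the 14 the full chain was recorded in both assemblies, against 20.1% of all named genes. Adam8, Camp, Chi3l1, Cyba and Cybb come first in the alphabet among the 13. Cybb, the catalytic subunit of the phagocyte NADPH oxidase, had 1 transcript of 13 exons and 4463 bp. Cyba, its partner subunit, reached 6 exons and 741 bp, and Chi3l1, a chitinase-like granule protein, 10 exons and 1665 bp. The list includes Camp, Lcn2 and Mmp8.

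Of 12 primary granule genes, 6 were found, and 4 of these (Cd63, Cst7, Ctsg and Prtn3) had a shared full chain, against 20.1% of all named genes. Mpo and Gusb had none. This list includes Prtn3, Mpo and Elane of the set. Srgn, the proteoglycan that holds granule cargo, was present under its older name Pgsg. Of 19 genes for neutrophil receptors and signalling, 14 were found, 12 with a full reference chain, against 38.6% of all named genes. Among the 12 were Alox5 and Alox5ap, of the leukotriene pathway, with 13 and 5 exons. Among 10 myeloid transcription factors, 6 were found and 5 had a full reference chain, against the same 38.6%. Cebpe, which drives the secondary granule programme, had 1 transcript of 2 exons and 1181 bp in both assemblies, and Cebpa had 1 of a single exon and 2664 bp. Spi1, the gene for PU.1, appeared under its older name Sfpi1.

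Of 13 genes of the S100 family, 7 were found, each with a full reference chain, and in 4 (S100a10, S100a4, S100a9 and S100b) it was shared by the assemblies. Among all named genes, 38.6% had a full reference chain and 20.1% a shared one. This list includes S100a8 and S100a9 of the set.

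For other cell types of bone and marrow the shares are to be read against the 38.6% of all named genes with a full reference chain. A full reference chain was present for 3 of 6 erythroid genes found, 4 of 9 monocyte and macrophage genes, 2 of 7 B cell genes and 3 of 6 eosinophil, basophil and mast cell genes, from 28.6% to 50%. No transcript carried the symbol of a hemoglobin gene looked for (Hba-a2, Hba1, Hbb and Hbb-b1). Older symbols alone were met for Epb42 and Ahsp (erythroid), C1qc (macrophage), Pax5 (B cell), Tpsb2 (mast cell) and Bglap (bone cell). The same held for Cd177 and Cxcr2 of the neutrophil lists. These genes are not counted as found. Bone cell genes were recovered like the neutrophil genes, with 11 of 12 found by name and 10 of these 11 with a full reference chain, Col1a1 with 51 exons among them. The high share of full chains was thus not particular to neutrophil genes. In RNA from a whole femur, fewer cells of a type and less RNA per cell cannot be told apart, and models carry no amount of either. Whether the shares vary with the number of exons of the listed genes was not tested.

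**Figure D4:**
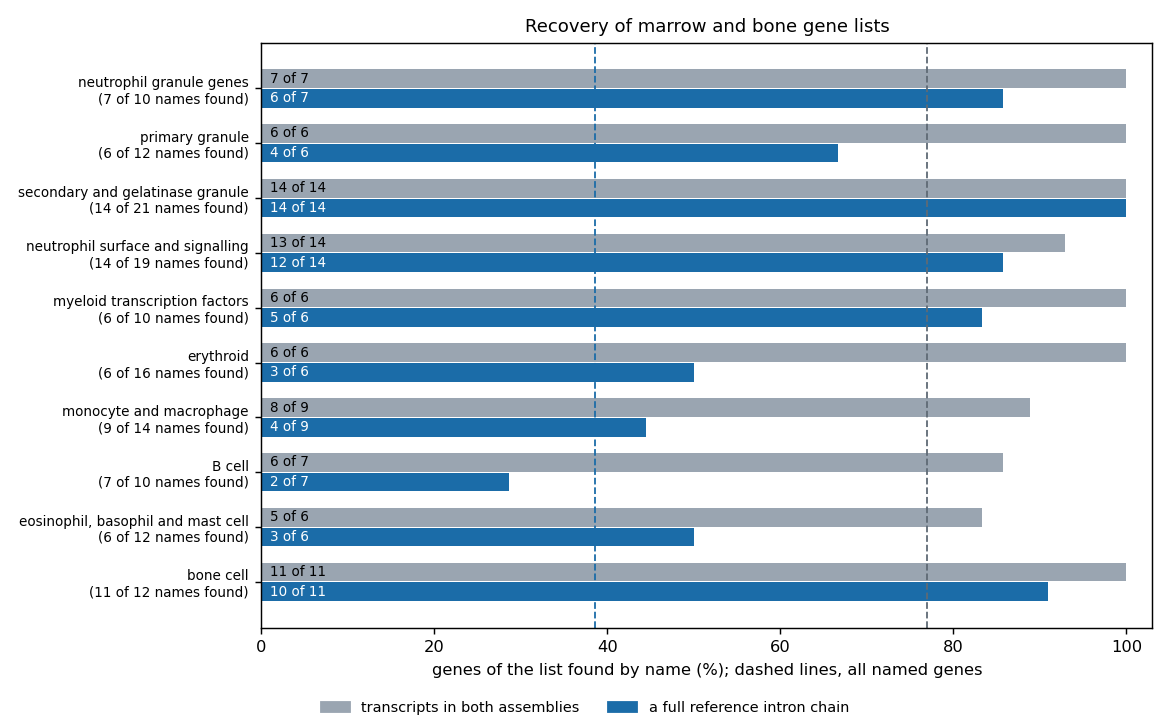
Share of the genes found by name (%) that had transcripts in both assemblies (grey) or a full reference intron chain (blue), for the gene lists of marrow and bone cells, with the counts written in the bars. Dashed lines give the same shares for all named genes, 76.9% and 38.6%; the neutrophil granule genes stand at 7 of 7 and 6 of 7, and the bone cell genes at 11 of 11 and 10 of 11.

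The nearest named neighbours also placed the loci. Lcn2 lay 7010 bp from Ciz1_predicted and 6462 bp from Ptges2_predicted, and Camp 2427 bp from Nme6, all on the strand opposite to it. Mpo lay 5102 bp from Lpo_predicted, the gene of the related lactoperoxidase, on the opposite strand. None of the 7 loci was on the list of 1507 new genes.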

How the data were processed

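The deposited files hold no expression values. The authors' annotation gives start and end of transcript models and exons in bp, with name, class code and number of assemblies, and another table gives the positions of new genes. Per the labels, the submitters' processing notes list FastQC, HISAT2, StringTie, featureCounts and rn4. Versions and parameters are not given in the sources used here.

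The first and second assembly were read from the transcript numbering, which on each of the 21 sequences runs through both strands and then through both again. A named gene is a locus with a gene name and no entry among the new genes. A full reference chain is class code =, a new junction j, a contained fragment c and a retained intron m or n. Single-exon models of class code = were not counted apart. Sequences were assigned to chromosomes by the current RefSeq genes on them. No test was run, because no file holds a value per sample. Scripts (Python 3.11.15) were tested on simulated data.

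Members and lists were chosen with earlier results of these data known. All members are named, and of each wider list the first 5 genes in the alphabet with a full chain in both assemblies could be named with values. Chosen after values were seen were the motifs, the loci and gene orders at the places of Elane, Ltf and lysozyme, and the mention of Ngp, Mmp13, S100a6, Ms4a2, Prg3, Hdc, Cpa3, Cfd, Gusb, Srgn, Spi1 and the neighbours. The same holds for the other genes met only under an older symbol. The megakaryocyte and platelet list is not reported here.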

Additional observations from a re-analysis of the deposited data

How the results depend on the processing

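The number of genes found by name was 7 under 3 of its 5 alternatives (transcripts of at least 200 bp, contained fragments left out, and older symbols that belong to 1 gene, the last an alternative chosen after seeing the data). Taking names exactly as written gave 5, and accepting any older symbol gave 8, which adds Elane through Ela2. Genes with transcripts in both assemblies numbered 7 with a minimum of 200 bp, 6 without contained fragments (S100a8 is lost) and 5 when 1 transcript had to be recorded in both. Genes with a full reference chain numbered 6 among spliced models, 7 when new-junction models were accepted and 5 when the chain had to be in both assemblies.

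The median number of transcripts fell from 2 to 1 without contained fragments, because S100a8 then has 1 model. The median of all named genes was not recomputed in that way. The median exon length of the longest model was 886 bp, again 886 bp as the union of exons, and 741 bp over full-chain models only, which leave out Mpo and the longest models of S100a9 and Prtn3.

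The planned ratio of model length to coding length was not run, since no protein sequence was at hand, and the expression comparison with its left-out replicates was not run for want of values per sample. No paired analysis was possible because the result comes from no test and no file holds values per sample. Depth is unknown, so a gene without a model cannot be called silent.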

Other observations

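Within 20 kb of the 7 loci, 2 loci without a gene name were assembled. XLOC_002418, on the list of new genes, lay between S100a8 and S100a9 on chromosome 2 (170109720 to 170120697, plus strand). Its 1 transcript had 2 exons and 232 bp, was in the first assembly only, and ended 2410 bp from S100a9. XLOC_007285, 17573 bp from Prtn3, was a model of 2 exons and 307 bp inside an intron of a known gene, also in the first assembly only.

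Of 12 eosinophil, basophil and mast cell genes, 6 were found and 2 had a full reference chain shared by the assemblies, against 20.1% of all named genes. Epx, the eosinophil peroxidase, had 1 transcript of 13 exons and 2690 bp, and Prg2, the major basic protein, 1 of 6 exons and 857 bp. Ms4a2 had a full chain that was not shared. Prg3, a homologue of Prg2, had 4 transcripts and Hdc, the histidine decarboxylase, 5, without a full chain, and Cpa3, a mast cell protease, had 2 transcripts in 1 assembly only, also without one. Mpo, the neutrophil peroxidase of the same family as Epx, had no full chain.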
